A study of Mus musculus with 12 samples.

Results

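The core circadian clock and output genes were described in hearts of mice that ate a diet with or without the branched-chain amino acids leucine, isoleucine and valine (BCAA) and had sham surgery or transverse aortic constriction (TAC, in which a tightened aorta puts the left ventricle under pressure overload). The 10 genes were chosen by name: Arntl, Clock, Npas2, Nr1d1, Nr1d2, Per1, Per2, Per3, Cry1 and Dbp. All 10 were found among the 16514 genes listed in any of the 4 deposited tables, and each had reads in all 12 libraries. The mice were male, of the C57Bl/6J strain and 12 weeks old. Both diets held 1% propionate, a short-chain fatty acid, so no group lacked it. Diets began 4 days before surgery, and hearts were taken 1 week after it. There were n = 3 libraries in each of the groups BCAA-free sham, BCAA-free TAC, control sham and control TAC. The control diet held BCAA at a level like that of standard chow. Nothing in the labels states that replicate libraries are from different mice, so the p-values reflect only the scatter among these libraries, and part of it may be technical. The hour at which each heart was taken is not stated in the labels, and its part in any result below was not tested.

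The clock is a feedback loop of transcription. Arntl encodes BMAL1, which pairs with CLOCK or NPAS2 and activates genes through E-boxes, among them the Per, Cry and Nr1d genes. PER and CRY proteins inhibit that pair, and the nuclear receptors REV-ERB alpha and beta (Nr1d1 and Nr1d2) repress Arntl. Dbp is an output of the loop and encodes a factor that binds D-boxes. The heart has its own clock, and the levels of these transcripts change over the day, with Arntl high when Per and Dbp are low.

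On GRCm38 (GENCODE M21), the activator genes lie with Arntl at chr7:113207465-113314126, Clock at chr5:76209868-76304792 and Npas2 at chr1:39193731-39363236. The repressor genes lie with Nr1d1 at chr11:98767932-98775333, Nr1d2 at chr14:18204054-18239127, Per1 at chr11:69095217-69109960, Per2 at chr1:91415982-91459324, Per3 at chr4:151003652-151044665 and Cry1 at chr10:85131700-85185064, and the output gene Dbp at chr7:45705088-45710203. All are protein-coding.

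Promoters are shown because the loop is defined by the elements in them. RefSeq promoter windows of 300 bases (250 before a start and 50 after it, GRCm38.p6) were matched for 9 of the 10 genes, in 13 windows; Per2 was not matched. Each window was searched on both strands for the E-box CACGTG, the D-box as TTATGTAA or TTACGTAA, and the ROR/REV-ERB element as TAGGTCA or TGGGTCA. None of these motifs contains another. The Arntl, Nr1d1, Per1 and Dbp promoters are printed by rule, and Per3 was added after its matches were seen. The 250 bases before the start are given 5′ to 3′ on the gene's strand, in lower case with motif matches in capitals:
Arntl, chr7:113207261-113207510, plus strand: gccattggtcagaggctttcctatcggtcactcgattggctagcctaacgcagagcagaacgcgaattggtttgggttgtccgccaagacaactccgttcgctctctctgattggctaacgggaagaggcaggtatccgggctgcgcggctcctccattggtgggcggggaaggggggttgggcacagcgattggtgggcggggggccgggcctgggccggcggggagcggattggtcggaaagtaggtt
Nr1d1, chr11:98775378-98775627, minus strand: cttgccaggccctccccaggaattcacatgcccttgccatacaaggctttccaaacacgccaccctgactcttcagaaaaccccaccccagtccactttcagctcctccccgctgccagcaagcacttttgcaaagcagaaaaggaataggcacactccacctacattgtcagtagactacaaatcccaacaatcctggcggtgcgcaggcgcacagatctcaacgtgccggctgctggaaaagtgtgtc
Per1, chr11:69098699-69098948, plus strand: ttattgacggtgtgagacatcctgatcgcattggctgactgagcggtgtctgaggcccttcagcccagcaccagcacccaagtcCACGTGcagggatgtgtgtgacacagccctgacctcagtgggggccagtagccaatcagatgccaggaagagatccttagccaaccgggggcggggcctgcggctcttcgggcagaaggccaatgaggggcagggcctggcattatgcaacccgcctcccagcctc
Per3, chr4:151044666-151044915, minus strand: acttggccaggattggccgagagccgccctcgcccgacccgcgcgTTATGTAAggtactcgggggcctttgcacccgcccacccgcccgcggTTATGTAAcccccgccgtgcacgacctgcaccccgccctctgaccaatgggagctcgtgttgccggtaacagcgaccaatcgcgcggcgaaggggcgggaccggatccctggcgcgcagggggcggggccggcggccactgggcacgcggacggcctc
Dbp, chr7:45704997-45705246, plus strand: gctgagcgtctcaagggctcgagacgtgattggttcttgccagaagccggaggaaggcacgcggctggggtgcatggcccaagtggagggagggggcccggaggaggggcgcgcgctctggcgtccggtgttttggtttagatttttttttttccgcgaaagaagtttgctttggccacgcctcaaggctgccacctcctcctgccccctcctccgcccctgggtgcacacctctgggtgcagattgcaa

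The Per1 window held 1 E-box, 166 bases before the start. The Per3 window held the D-box TTATGTAA at 205 and at 158 bases before the start. Cry1, whose promoter is not printed, held 1 E-box, 60 bases before its start. Arntl held 1 ROR/REV-ERB element, which began 30 bases after the start, within this 27-base stretch:
Arntl, element after the start: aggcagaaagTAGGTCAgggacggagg
Matches were thus found for 4 genes. Among 32851 promoter windows of the same length, 7.15% held CACGTG, 0.938% TTATGTAA, 0.119% TTACGTAA, 2.61% TAGGTCA and 3.98% TGGGTCA. A match is a description of letters, and a window without one says only that these letters are not in it.

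Levels are given as normalised reads, which are whole reads recovered from the deposited values and divided by 1 size factor per library over all 12 libraries. Libraries held 29929161 to 46101244 reads assigned to genes. The lowest read number of any of the 10 genes was 46, for Arntl in control TAC replicate 2 and for Npas2, so the counting error was largest for those genes. Summed cardiomyocyte markers (7 of 7 genes listed) were 75038 to 76528 CPM (reads scaled by the library's total) in control sham and 77657 to 79850 CPM in BCAA-free sham. They were 74389 to 78172 CPM in control TAC and 78576 to 86102 CPM in BCAA-free TAC. Fibroblast markers (6 of 6) summed to 688 to 724 CPM in control sham and 564 to 614 CPM in BCAA-free sham, against 880 to 1665 CPM in control TAC and 863 to 1600 CPM in BCAA-free TAC. Replicate 1 stood apart in each TAC group. Its fibroblast sum was 1665 CPM against 880 and 923 CPM in control TAC, and 1600 CPM against 970 and 863 CPM in BCAA-free TAC. Macrophage markers (5 of 5) summed to 179 to 191 CPM and 139 to 154 CPM in the sham groups, against 186 to 306 CPM and 248 to 307 CPM in the TAC groups. Liver markers (8 of 8) summed to 251 CPM in control TAC replicate 3 and to at most 1.77 CPM in the other libraries, and 0 of 4 lung markers were listed. For the BCAA-free sham libraries, only 2 of the 8 liver markers had values to sum. Skeletal muscle markers (3 of 5 listed, the defining Myh1 and Myh4 not among them) summed to 283 to 318 CPM in control sham and 181 to 260 CPM in BCAA-free sham, against 1655 to 2181 CPM in control TAC and 467 to 1684 CPM in BCAA-free TAC. One of the 3 is Acta1, an actin that heart muscle also makes, which rose by 2.61 on the log2 scale with TAC on the control diet (limma adjusted p = 1.56e-06). The skeletal muscle sum of BCAA-free TAC was 1684 CPM in replicate 1, against 551 and 467 CPM in replicates 2 and 3. Endothelial markers (5 of 5) summed to 742 to 1056 CPM in the sham groups, 788 to 892 CPM in control TAC and 667 to 706 CPM in BCAA-free TAC. T cell markers (4 of 4) summed to 0.486 to 1.81 CPM in control sham and 3.95 to 5.57 CPM in BCAA-free sham. Among the sums given here, those of skeletal muscle and fibroblast markers were higher with TAC without overlap on both diets. On the BCAA-free diet only, the macrophage sum was also higher with TAC and the endothelial sum lower, without overlap. In sham hearts on the BCAA-free diet, the skeletal muscle, fibroblast and macrophage sums were lower without overlap, and the cardiomyocyte and T cell sums higher. In TAC hearts on that diet, the endothelial sum was lower and the cardiomyocyte sum higher without overlap. The part of these markers in the clock gene changes was not tested. In whole hearts, fewer cells of a type and less RNA per cell cannot be told apart.

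Per length of exon (RPKM, which is CPM divided by exon length in kilobases, as mean ± SD over the 12 libraries), Nr1d1 stood at 39.1 ± 10.1 RPKM and Dbp at 32.5 ± 7.28 RPKM. Per1 followed at 20.5 ± 5.68 RPKM and Nr1d2 at 17.7 ± 2.03 RPKM. Per2 (4.29 ± 2.09 RPKM) and Per3 (4.28 ± 1.43 RPKM) lay close together, as did Cry1 (2.32 ± 0.460 RPKM) and Clock (2.31 ± 0.449 RPKM). Arntl (0.870 ± 0.635 RPKM) and Npas2 (0.597 ± 0.189 RPKM) were the lowest. Within each of these neighbouring pairs the difference was smaller than the larger of the 2 SDs, while the steps from Dbp to Per1, from Nr1d2 to Per2, from Per3 to Cry1 and from Clock to Arntl were larger than either SD.

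Arntl varied most between libraries. Its highest library, BCAA-free sham replicate 1, held 11.4 times the normalised reads of its lowest, control TAC replicate 2, and 0.543% of 12718 genes with a mean of at least 50 had a ratio that large. The ratio was 4.42 for Per2, 2.99 for Npas2, 2.94 for Per3, 2.93 for Per1, 2.498 for Nr1d1, 2.10 for Dbp, 1.91 for Clock and 1.84 for Cry1. Nr1d2 had a ratio of 1.49, near the median of all genes, 1.46.

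One library of the control sham group stood apart in these genes. Arntl was 426 normalised reads in control sham replicate 3, against 120 in replicate 1 and 146 in replicate 2. In the same 3 libraries, Per1 was 2180, 5730 and 6387 normalised reads. Dbp was 2232, 4696 and 4397 normalised reads, again with replicate 3 given first. Per2, given in that order, was 597, 1324 and 1035 normalised reads. For 8 of the 10 genes (all but Nr1d1 and Cry1), control sham replicate 3 lay nearer to the mean of the BCAA-free sham group than to the mean of the other 2 control sham libraries. Over all genes this held for 51.4%. For replicates 1 and 2 it held for 0 and 3 of the 10 genes, against 42.1% and 42.5% of all genes.

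The spread between libraries of a group, as the SD of log2(normalised reads + 4), was 0.97 for Arntl, 0.85 for Per1, 0.59 for Dbp, 0.59 for Per2 and 0.50 for Npas2 in control sham. The median over the 10 genes was 0.45 there, against 0.12 over all genes. The corresponding medians of the 10 genes were 0.13 in control TAC, 0.12 in BCAA-free sham and 0.26 in BCAA-free TAC, against 0.11, 0.09 and 0.13 over all genes. Control sham was the group in which the clock genes' median lay farthest above that of all genes.

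**Figure D1:**
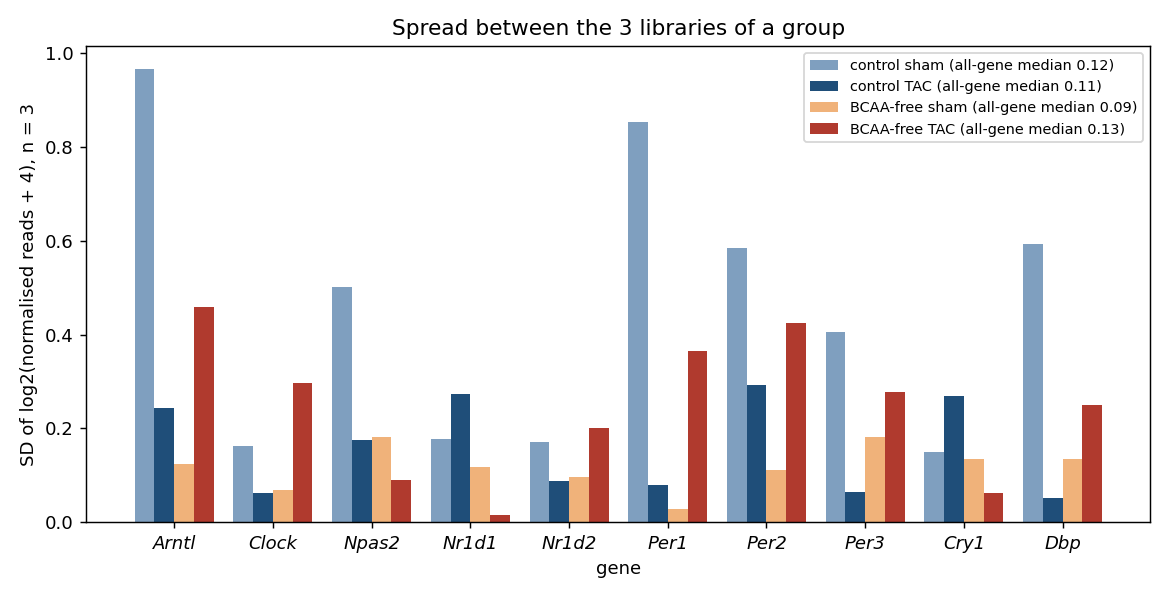
SD of log2(normalised reads + 4) between the 3 libraries of each group (bars) for each clock gene, with the median SD of all genes in the legend. The control sham bars of Arntl (0.97) and Per1 (0.85) are the tallest, and the control TAC bar of Dbp is 0.05.

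The first question was how clock genes differed with TAC on each diet. On the control diet, Arntl and Nr1d1 fell, and the other 8 genes did not pass the test. On the BCAA-free diet, Arntl, Clock and Nr1d1 fell, and Per2 and Per3 rose. Changes are differences of log2(value + 4) with their standard error (SE), tested with limma across all genes of a table, and a gene passed where its adjusted p was under 0.05. The count was 2 of 10 on the control diet, where 5.34% of all 15873 genes tested passed. It was 5 of 10 on the BCAA-free diet, where 4.32% of 15936 genes passed. With edgeR on the recovered reads, 1 gene passed on the control diet, Arntl, where 4.61% of all genes passed. In the authors' deposited tables, the same 2 and 5 genes had an adjusted p under 0.05, where 9.96% and 7.18% of all genes did. These 2 comparisons share no library, and 9 of the 10 genes had the same sign in both, all but Npas2. Over all genes the share was 66.2%. Some of these signs rest on small differences. Per1 was 0.05 ± 0.33 (SE) on the control diet, but -0.094 in the authors' deposited table. On the BCAA-free diet Cry1 differed by 0.019 ± 0.12 (SE) and Nr1d2 by -0.017 ± 0.10 (SE).

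Arntl, whose product activates the loop, was 120, 146 and 426 normalised reads in control sham and 53.3, 46.3 and 66.3 normalised reads in control TAC. The groups did not overlap, and the lowest control sham library was above the highest control TAC library. Arntl fell by 1.76 ± 0.40 (SE) on the log2 scale, 3.40-fold, with a limma adjusted p of 0.0379. On the BCAA-free diet it was 525, 485 and 441 normalised reads in sham and 272, 205 and 142 normalised reads in TAC, again without overlap. The fall there was 1.25 ± 0.19 (SE) on the log2 scale, 2.39-fold, with an adjusted p of 0.00802.

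Of the 6 fits that each left out 1 library, the control-diet call for Arntl held in 2. Its log2 difference over the 6 fits was -2.11 to -1.21. In these fits 1.89% to 4.16% of all genes passed, against 5.34% with all libraries. Without control sham replicate 2 or any 1 of control TAC replicates 1, 2 and 3, the adjusted p of Arntl rose to 0.0520 to 0.102. Without control sham replicate 3 the fall of Arntl was 1.21 on the log2 scale. On the BCAA-free diet, the adjusted p of Arntl was 0.0569 without BCAA-free sham replicate 1 and 0.0581 without replicate 2.

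Clock, the partner of BMAL1, was 1464, 1546 and 1404 normalised reads in BCAA-free sham and 1220, 808 and 981 in BCAA-free TAC. It fell by 0.57 ± 0.13 (SE) on the log2 scale, with a limma adjusted p of 0.0328. On the control diet Clock was 1111, 1184 and 1384 normalised reads in sham and 1008, 942 and 1022 in TAC, which also did not overlap, but the difference of -0.30 did not pass (adjusted p = 0.0927). The BCAA-free call for Clock was lost without any 1 of BCAA-free sham replicates 1, 2 and 3 (adjusted p 0.107 to 0.160) or BCAA-free TAC replicate 2 (0.0683).

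Npas2, which can replace CLOCK in the pair, did not pass in either TAC comparison. Its difference was 0.31 ± 0.26 (SE) on the control diet (adjusted p = 0.519) and -0.46 ± 0.16 (SE) on the BCAA-free diet (adjusted p = 0.123). In BCAA-free hearts, Npas2 was 134, 173 and 144 normalised reads in sham and 105, 116 and 102 in TAC, without overlap. In control hearts, it was 58.0, 57.8 and 109 normalised reads in sham and 104, 84.5 and 82.9 in TAC, and the groups overlapped through control sham replicate 3.

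Nr1d1, the REV-ERB alpha gene that represses Arntl, fell with TAC on both diets together with Arntl. It was 4006, 5127 and 4556 normalised reads in control sham and 2804, 2639 and 3764 in control TAC, without overlap. The fall was 0.58 ± 0.13 (SE) on the log2 scale, with a limma adjusted p of 0.0385. On the BCAA-free diet Nr1d1 was 5627, 6592 and 5868 normalised reads in sham and 4187, 4234 and 4145 in TAC, and fell by 0.52 ± 0.07 (SE), with an adjusted p of 0.00456. That call for Nr1d1 held without each library in turn, with a highest adjusted p of 0.0374. The control-diet call for Nr1d1 was lost without any 1 of control sham replicates 1, 2 and 3 or control TAC replicates 1 and 2 (adjusted p 0.0571 to 0.115), and edgeR gave 0.0520.

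Exons of Nr1d1 share 263 bases, 8.55% of its exon length, with Thra on the opposite strand, and whether reads were counted by strand is not stated, so their reads may be mixed. Thra differed by -0.19 ± 0.06 (SE, adjusted p = 0.124) with TAC on the control diet and by -0.31 ± 0.06 (SE, adjusted p = 0.0241) on the BCAA-free diet. Nr1d2, the REV-ERB beta gene, did not pass with TAC, at -0.12 ± 0.09 (SE) and -0.02 ± 0.10 (SE), with adjusted p of 0.485 and 0.946.

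Per2, which encodes an inhibitor of the BMAL1 and CLOCK pair, rose with TAC on the BCAA-free diet. It was 407, 441 and 476 normalised reads in BCAA-free sham and 569, 1002 and 879 in BCAA-free TAC, without overlap. The rise was 0.85 ± 0.17 (SE) on the log2 scale, 1.80-fold, with a limma adjusted p of 0.0252. On the control diet Per2 was 1324, 1035 and 597 normalised reads in sham and 1219, 1799 and 1341 in TAC, which overlapped, and its difference of 0.61 did not pass (adjusted p = 0.186).

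Per3, another Per family member, rose with TAC on the BCAA-free diet as well. It was 750, 906 and 955 normalised reads in BCAA-free sham and 1155, 1565 and 1655 in BCAA-free TAC, without overlap. The rise was 0.74 ± 0.13 (SE) on the log2 scale, 1.67-fold, with a limma adjusted p of 0.0160. On the control diet the groups overlapped and the difference of Per3 was 0.14 ± 0.16 (SE, adjusted p = 0.655). Both BCAA-free calls were lost without any 1 of BCAA-free sham replicates 1, 2 and 3 or BCAA-free TAC replicate 2, with adjusted p of 0.0705 to 0.120 for Per2 and 0.0554 to 0.0865 for Per3.

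Per1, Cry1 and Dbp did not pass with TAC on either diet. Per1 differed by 0.05 ± 0.33 (SE) on the control diet and 0.20 ± 0.14 (SE) on the BCAA-free diet. Without control sham replicate 3, Per1 differed by -0.44 on the control diet, with an adjusted p of 0.0352. Its edgeR and DESeq2 differences with all libraries were -0.095 and -0.093, so its direction with every library in depended on the method. Without BCAA-free TAC replicate 1, Per1 was 0.41 higher on the BCAA-free diet (adjusted p = 0.00404). Cry1, the partner of PER in inhibition, differed by 0.35 ± 0.15 (SE, adjusted p = 0.210) and 0.02 ± 0.12 (SE, adjusted p = 0.953). Dbp differed by 0.21 ± 0.23 (SE) and 0.16 ± 0.12 (SE), and without BCAA-free TAC replicate 1 by 0.31 on the BCAA-free diet (adjusted p = 0.0456). Exons of Dbp share 539 bases, 18% of its exon length, with Sphk2 on the opposite strand, so reads of Dbp may be mixed too.

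Groups did not overlap for 4 of the 10 genes with TAC on the control diet, where it was 28% of all genes, and for 6 of 10 on the BCAA-free diet, where it was 26.7% of all genes. Fits that left out 1 library also called fewer or more genes in all: 1.89% to 4.16% of all genes passed with TAC on the control diet, 0.668% to 7.57% with TAC on the BCAA-free diet, 0.438% to 6.56% with diet in sham hearts and 0.855% to 6.47% with diet in TAC hearts.

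**Figure D2:**
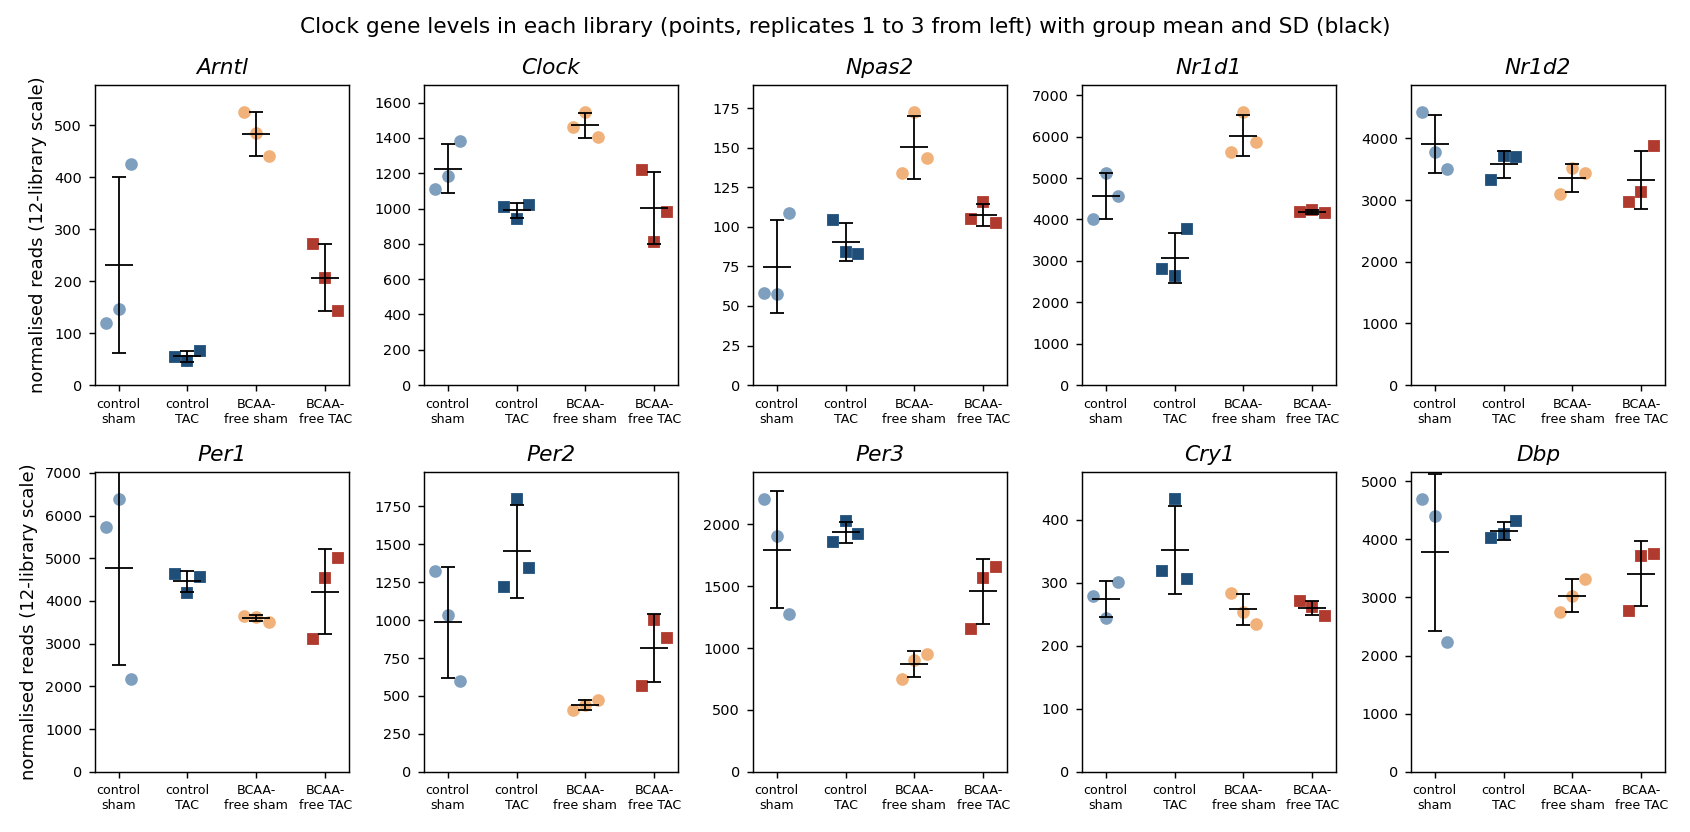
Normalised reads of each gene (y axis) in each library by group (x axis), points from left to right being replicates 1 to 3, with mean and SD in black. Control sham replicate 3 lies away from the other 2 control sham libraries in Arntl (426 against 120 and 146) and Per1 (2180 against 5730 and 6387).

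The next question was how clock genes differed with the diet within each surgery. In sham hearts, Npas2 and Nr1d1 were higher and Per2 and Per3 lower on the BCAA-free diet. In TAC hearts, Arntl was higher on the BCAA-free diet. The counts were 4 of 10 in sham hearts, where 2.81% of 15596 genes passed, and 1 of 10 in TAC hearts, where 3.38% of 16222 genes passed. With edgeR, 3 of 10 passed in sham hearts, where 2.98% of all genes did. The authors' deposited table for sham hearts had the same 4 genes under 0.05, where 5.21% of all genes were. All 10 genes had the same sign in these 2 comparisons, which share no library, although Clock was only 0.0049 higher in TAC hearts; over all genes it was 63.8%.

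In sham hearts, Per2 was 407, 441 and 476 normalised reads on the BCAA-free diet, below the 1324, 1035 and 597 on the control diet. The fall was 1.08 ± 0.22 (SE) on the log2 scale, 2.11-fold, with a limma adjusted p of 0.0274. Per3 fell by 1.01 ± 0.16 (SE), 2.02-fold, with an adjusted p of 0.0103, from 2206, 1903 and 1280 normalised reads to 750, 906 and 955. Neither gene's groups overlapped, and control sham replicate 3 was the control library nearest to the BCAA-free ones in both. The call for Per2 was lost without control sham replicate 2 or any 1 of BCAA-free sham replicates 1, 2 and 3 (adjusted p 0.0600 to 0.133), and that for Per3 without BCAA-free sham replicate 1 or 2 (0.0670 and 0.0599).

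Npas2 rose by 1.02 ± 0.24 (SE) on the log2 scale in sham hearts on the BCAA-free diet, 2.03-fold, with a limma adjusted p of 0.0455. The 3 BCAA-free sham libraries, 134 to 173 normalised reads, lay above the 3 control sham libraries, 57.8 to 109 normalised reads. The adjusted p of Npas2 was 0.0540 with edgeR and 0.0522 after quantile normalization, and it was 0.105 to 0.181 without control sham replicate 1 or 2 or any 1 of the BCAA-free sham libraries. Nr1d1 rose by 0.41 ± 0.09 (SE), with an adjusted p of 0.0351. Its call was lost without control sham replicate 1 or any 1 of the BCAA-free sham libraries (adjusted p 0.0779 to 0.146). Thra, which shares bases with Nr1d1, rose by 0.32 ± 0.05 (SE, adjusted p = 0.0124) there.

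Arntl was higher in each of the 3 BCAA-free sham libraries (441 to 525 normalised reads) than in each of the 3 control sham libraries (120 to 426), but its difference of 1.28 ± 0.35 (SE) did not pass, with a limma adjusted p of 0.0759. Without control sham replicate 3, Arntl was 1.83 higher on the log2 scale, with an adjusted p of 0.000103. Leaving that library out also brought Clock (0.36, adjusted p = 0.0160), Dbp (-0.59, adjusted p = 0.00210) and Per1 (-0.75, adjusted p = 0.000182) past the threshold, so that 8 of 10 genes passed, where 6.56% of all genes did. With it, Clock differed by 0.27 (adjusted p = 0.120), Dbp by -0.24 (0.600) and Per1 by -0.26 (0.702). Without BCAA-free sham replicate 1 or 2, 0 of 10 genes passed, where 0.638% and 0.438% of all genes did. Nr1d2 (-0.21, adjusted p = 0.207) and Cry1 (-0.09, adjusted p = 0.775) did not pass with all libraries.

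In TAC hearts, Arntl was 272, 205 and 142 normalised reads on the BCAA-free diet and 53.3, 46.3 and 66.3 on the control diet. It rose by 1.80 ± 0.24 (SE) on the log2 scale, 3.49-fold, with a limma adjusted p of 0.00642. The call for Arntl held without each library in turn (highest adjusted p 0.0453), and the difference was 1.85 when control TAC replicates 2 and 3 were both left out. That fit leaves 1 control TAC library, which is assumed to vary like the other groups, and 0 of 15999 genes passed in it (adjusted p of Arntl 0.148; 1889 genes at an unadjusted p under 0.05). Control TAC replicate 3 was the library with liver markers, and their part in the Arntl difference was not tested.

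The other genes in TAC hearts did not pass by limma, though the groups of Nr1d1, Per2, Per3, Cry1 and Dbp did not overlap. Nr1d1 differed by 0.47 ± 0.12 (SE, adjusted p = 0.0700), Per2 by -0.84 ± 0.21 (SE, adjusted p = 0.0689) and Per3 by -0.42 ± 0.13 (SE, adjusted p = 0.117). With DESeq2 these 3 passed, with adjusted p of 0.00945, 0.000938 and 0.0448, which with Arntl made 4 of 10 where 7.31% of all genes passed. In the authors' deposited table for diet in TAC hearts, the same 3 genes and Arntl had an adjusted p under 0.05, where 7.8% of all genes did. Nr1d1 also passed by limma without control TAC replicate 3 (0.63, adjusted p = 0.0130). Cry1 differed by -0.41 ± 0.15 (SE, adjusted p = 0.162), Dbp by -0.29 ± 0.12 (SE, adjusted p = 0.218), Npas2 by 0.25 ± 0.16 (SE), Clock by 0.0049, Nr1d2 by -0.11 and Per1 by -0.10. Groups did not overlap for 6 of 10 genes with diet in sham hearts (23.2% of all genes) and for 6 of 10 in TAC hearts (25.6%).

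**Figure D3:**
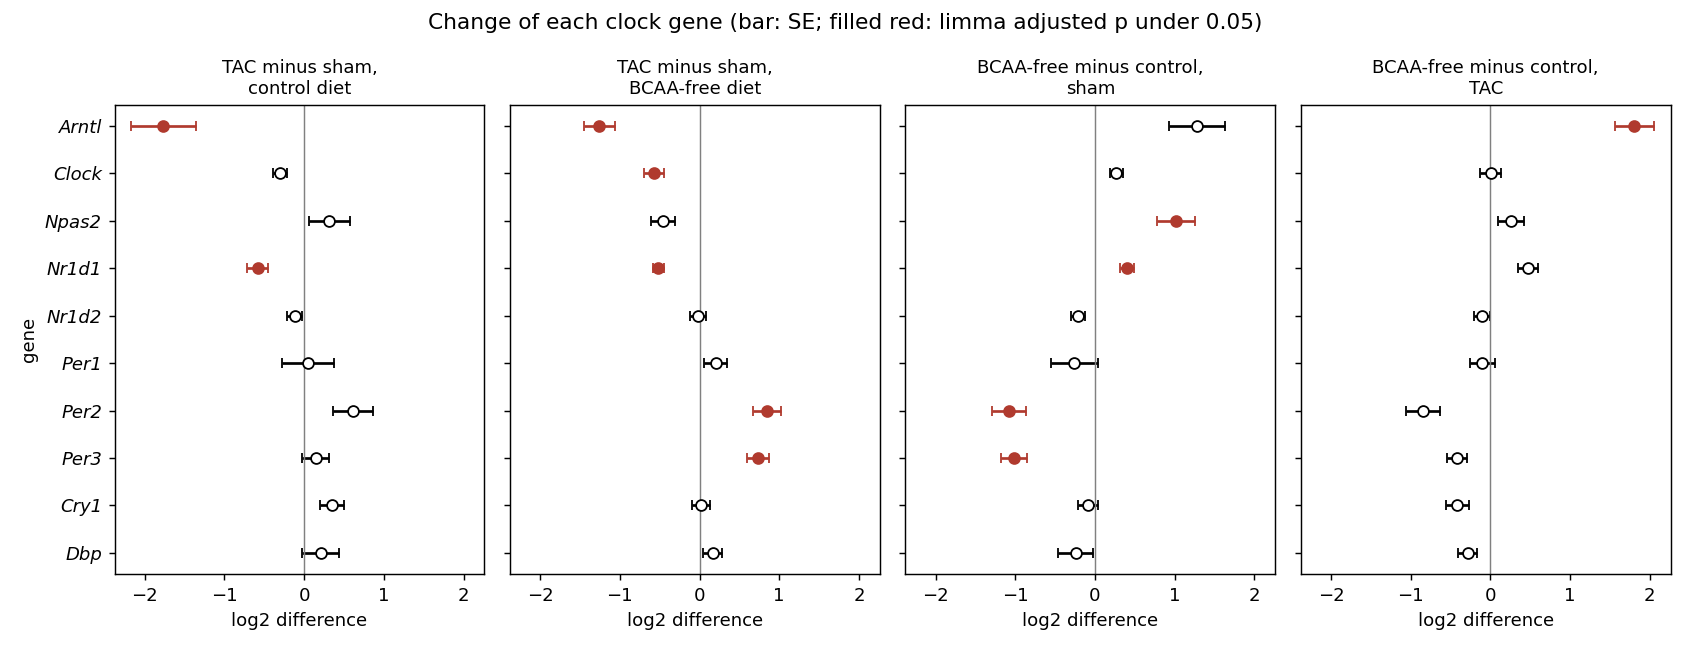
Log2 difference of each gene (points, bars are SE) in the 4 pairwise comparisons, red where the limma adjusted p is under 0.05. Arntl moves furthest, at -1.76 with TAC on the control diet and 1.80 with diet in TAC hearts.

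With all libraries, the group means of Arntl fell in the order BCAA-free sham (484 ± 42.1, SD, n = 3), control sham (231 ± 170), BCAA-free TAC (206 ± 64.6) and control TAC (55.3 ± 10.2 normalised reads). Control sham and BCAA-free TAC overlapped, and without control sham replicate 3 the control sham mean was 133, below that of BCAA-free TAC. For Per2 the order ran from control TAC (1453 ± 306) through control sham (986 ± 366) and BCAA-free TAC (816 ± 223) to BCAA-free sham (441 ± 34.3). The outer groups were thus those of Arntl with their places exchanged, while control sham lay above BCAA-free TAC in both genes. Per3 ran in the Per2 order, at 1935 ± 88.4, 1796 ± 473, 1458 ± 266 and 870 ± 107 normalised reads, and the first 2 groups overlapped. Without control sham replicate 3 the control sham mean of Per3 was 2055, above that of control TAC, and that of Per2 was 1180, which left its order as it was. Nr1d1 ran in the Arntl order, at 6029 ± 502, 4563 ± 560, 4189 ± 44.3 and 3069 ± 607 normalised reads.

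Averaged over the diets, Arntl, Clock and Nr1d1 were lower with TAC and Per2 and Per3 higher. That is 5 of 10 genes, where 17% of 15524 genes passed. The part of the unstated hour of collection in these differences was not tested. Arntl fell by 1.51 ± 0.25 (SE, limma adjusted p = 0.00185), Clock by 0.43 ± 0.09 (SE, 0.00459) and Nr1d1 by 0.55 ± 0.08 (SE, 0.000993) on the log2 scale. Per2 rose by 0.73 ± 0.18 (SE, 0.0130) and Per3 by 0.44 ± 0.12 (SE, 0.0242). The calls of Arntl, Clock, Nr1d1 and Per2 held without each of the 12 libraries in turn. Per3 was lost without BCAA-free sham replicate 1 (adjusted p = 0.0643) or BCAA-free TAC replicate 2 (0.0529). Without control TAC replicates 2 and 3 both, Per2 (0.0737) and Per3 (0.0969) were lost.

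Averaged over surgery, Arntl, Npas2 and Nr1d1 were higher on the BCAA-free diet and Per2 and Per3 lower. That is 5 of 10 genes, where 11.8% of 15458 genes passed. The part of the unstated hour of collection was not tested here either. Arntl rose by 1.54 ± 0.25 (SE, limma adjusted p = 0.00248), Npas2 by 0.64 ± 0.15 (SE, 0.0164) and Nr1d1 by 0.44 ± 0.08 (SE, 0.00459). Per2 fell by 0.96 ± 0.18 (SE, 0.00437) and Per3 by 0.71 ± 0.12 (SE, 0.00285). All 5 calls held without each of the 12 libraries in turn. Without control TAC replicates 2 and 3 both, Npas2 was lost (adjusted p = 0.123). Without control sham replicate 3, Dbp (-0.44, adjusted p = 0.00409) and Per1 (-0.43, adjusted p = 0.0142) also passed, and without BCAA-free TAC replicate 3 Nr1d2 did (-0.22, adjusted p = 0.0476).

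Whether the TAC responses differed between the diets was tested directly, and 0 of 10 genes passed by limma, where 0.0451% of 15524 genes passed. At an unadjusted p under 0.05 there were 2 genes, and edgeR and DESeq2 also called 0, where they called 0.0322% and 0.731% of all genes. The 2 were Npas2, whose TAC change was 0.77 ± 0.31 (SE) lower on the log2 scale on the BCAA-free diet (adjusted p = 0.388), and Per3, whose change was 0.59 ± 0.24 (SE) higher (adjusted p = 0.406). For Arntl the difference of the responses was 0.51 ± 0.50 (SE, adjusted p = 0.804), and -0.04 without control sham replicate 3.

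Across the 12 libraries, 7 of the other 9 genes followed Arntl, positively or negatively, at an adjusted p under 0.05 (permutation test with 100000 resamples, 2-sided, adjusted over the 9 genes). These correlations take in the differences between groups, and the resamples moved libraries freely between groups. Their p-values therefore do not measure a relation within groups, which is described further below. Per2 ran most opposite to Arntl (r = -0.945, rho = -0.951, p = 1e-05 before adjustment, the smallest that the resamples can give, and 9e-05 after it). Nr1d1 ran with it (r = 0.883, rho = 0.930, adjusted p = 0.00036), while Per3 (r = -0.879, rho = -0.909, 0.00099) and Dbp (r = -0.774, rho = -0.769, 0.00776) ran opposite. Clock (r = 0.757, rho = 0.804, 0.00941) and Npas2 (r = 0.631, rho = 0.769, 0.0362) ran with it. Cry1 (r = -0.611, rho = -0.517, 0.0360) passed by r only, and Per1 (r = -0.576, rho = -0.594, 0.0537) and Nr1d2 (r = -0.404, rho = -0.483, 0.194) did not. Leaving out each library in turn, the relations of Clock, Nr1d1, Per2, Per3 and Dbp passed in all 12 fits. Npas2 did not pass in 5, those without control TAC replicate 3, BCAA-free TAC replicate 2 or any 1 of BCAA-free sham replicates 1, 2 and 3 (adjusted p 0.0512 to 0.0862). Cry1 did not pass in 5, those without any 1 of control TAC replicates 1, 2 and 3 or BCAA-free sham replicate 2 or 3 (0.0571 to 0.209). Per1 passed without control sham replicate 2 (0.0421) or control TAC replicate 2 (0.0455), and with CPM in place of normalised reads (0.0401).

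The 2 libraries farthest from the median of Arntl were control TAC replicates 1 and 2. Without them, r was -0.946 for Per2, -0.905 for Per3, 0.770 for Nr1d1, -0.817 for Dbp, 0.728 for Clock and 0.768 for Npas2. Cry1 fell to r = -0.198 (p = 0.576, permutation test), so its relation rested on those libraries. Nr1d2 was at r = -0.561 and Per1 at -0.690.

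With each group's mean subtracted, so that only the spread within groups remained, Per3 kept a relation with Arntl (r = -0.913, adjusted p = 0.0208 over 1296 within-group permutations) and the other 8 genes did not pass. Dbp stood at r = -0.927 (adjusted p = 0.0648), Per2 at -0.862 (0.0648) and Per1 at -0.912 (0.121), while Nr1d1 stood at 0.247 (0.556). With control sham replicate 3 also left out, r was -0.809 for Per3 (adjusted p = 0.167), -0.704 for Per2 (0.323), -0.678 for Dbp (0.333) and -0.598 for Per1 (0.610), and 0 of 9 passed. This last setting was chosen after seeing the data.

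**Figure D4:**
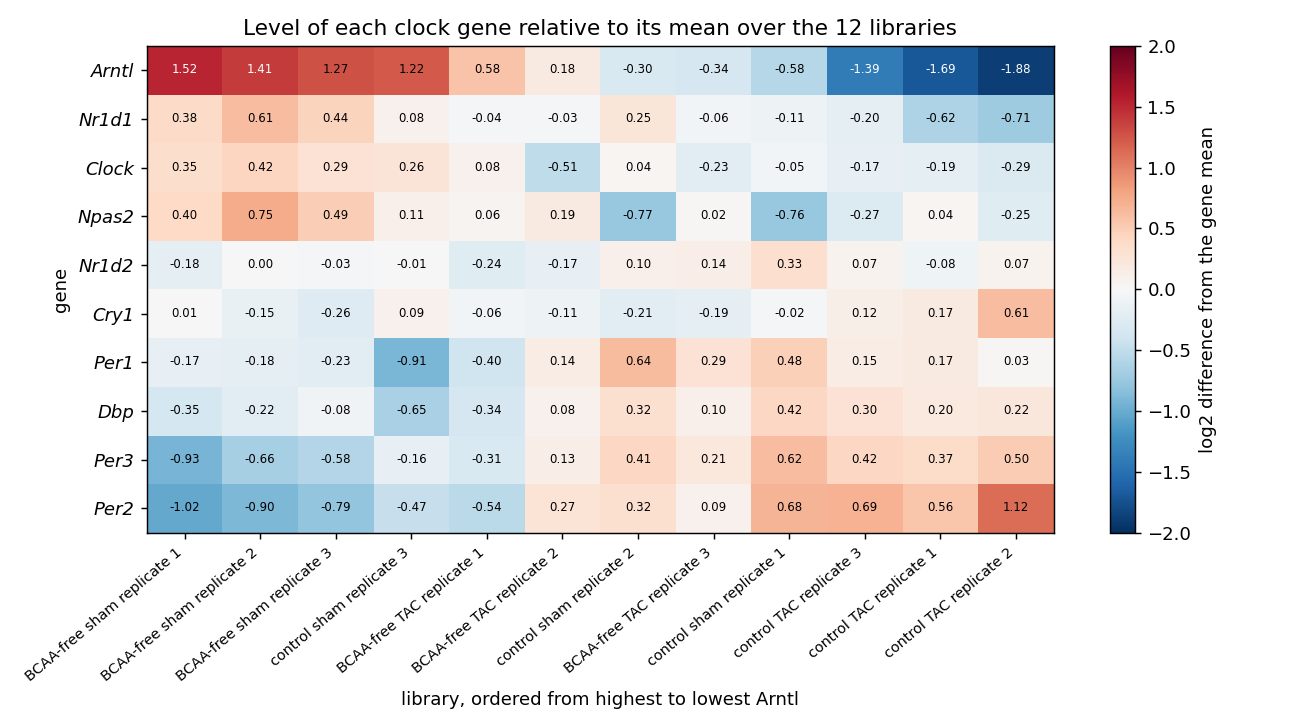
Log2 difference of each gene from its own mean over the 12 libraries (color and number), libraries ordered by Arntl from highest to lowest. The 3 BCAA-free sham libraries and control sham replicate 3 stand first, the 3 control TAC libraries last, and Per2 runs from -1.02 to 1.12 in the opposite order.

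When the libraries were ordered by Arntl, the first 4 were the 3 BCAA-free sham libraries and control sham replicate 3, and the last 3 were the control TAC libraries. The ratio of Per2 to Arntl normalised reads was 0.776 in BCAA-free sham replicate 1 and 38.9 in control TAC replicate 2. In control sham replicate 3 that ratio was 1.40, against 11.1 and 7.08 in the other control sham libraries. In the 3 BCAA-free TAC libraries it was 2.09, 4.88 and 6.18, between the sham libraries of the same diet and the control TAC libraries.

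**Figure D5:**
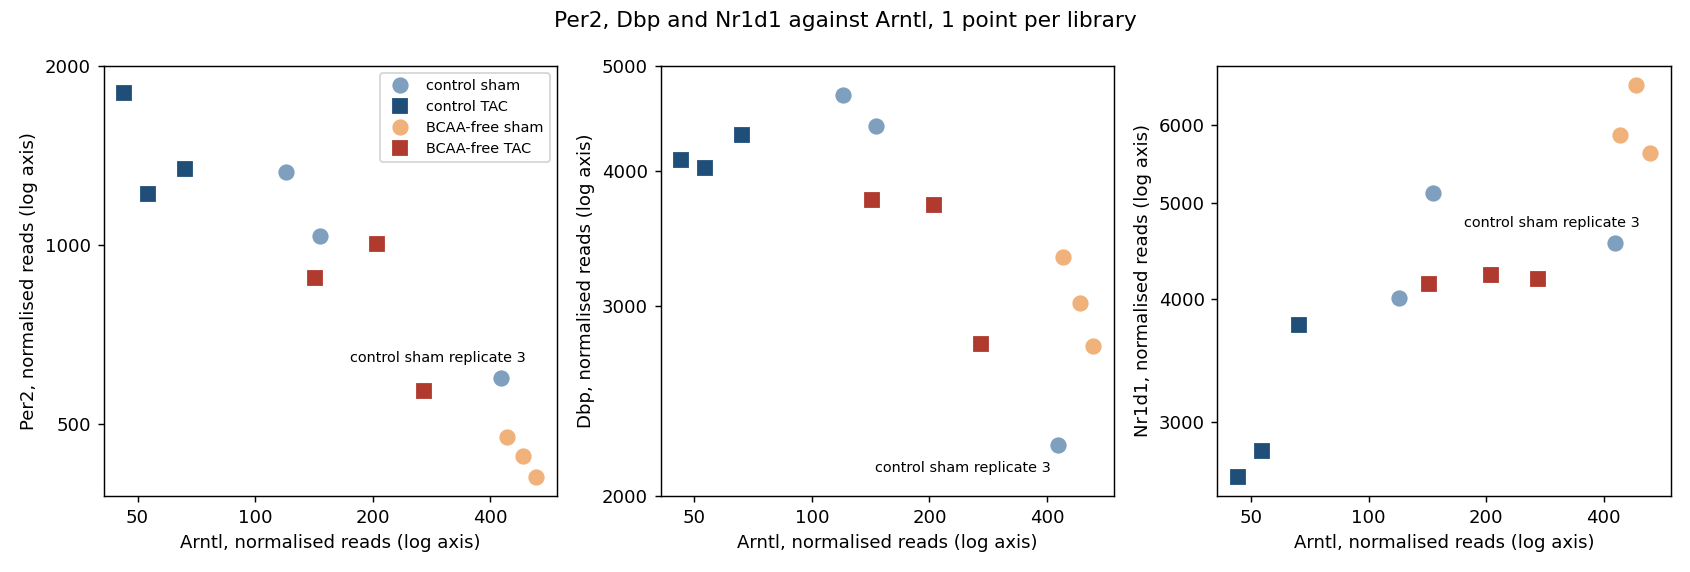
Normalised reads of Per2, Dbp and Nr1d1 (y axes, log scale) against Arntl (x axis, log scale), 1 point per library, colored by group. Per2 and Dbp fall as Arntl rises and Nr1d1 rises with it; control sham replicate 3 is named.

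Among 12718 genes with a mean of at least 50, Per2 ranked 7th lowest in its Pearson r with Arntl and Nr1d1 ranked 48th highest. The 5 other genes most like Arntl, over the 12 libraries, were Zfp51 (r = 0.955), Fam220a (0.954), Rims4 (0.953), Gpd1l (0.947) and Colq (0.940). The 5 most opposite were Klhdc3 (-0.987), Wee1 (-0.977), Wdr62 (-0.975), Trib1 (-0.952) and Mthfd1l (-0.948). Wee1, a kinase that holds cells before mitosis and a known clock output, was 974 ± 110 normalised reads (SD, n = 3) in control TAC and 336 ± 53.0 in BCAA-free sham. These are descriptions without a test, since the genes were picked for their likeness.

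Other clock components were 15 genes, of which 14 or 15 were tested in each comparison. On the BCAA-free diet, 2 of 15 rose with TAC and 0 fell, where 4.32% of all genes passed, with a list median of 0.08 on the log2 scale against -0.0030 for all genes. The highest was Ciart, a repressor of the BMAL1 and CLOCK pair, which was 288, 317 and 308 normalised reads in BCAA-free sham and 549, 793 and 828 in BCAA-free TAC. Ciart rose by 1.22 ± 0.14 (SE, limma adjusted p = 0.00285), and control sham replicate 3 again stood low in it, at 238 normalised reads against 792 and 798. Bhlhe41 (DEC2), which rose by 0.43 ± 0.10 (SE, adjusted p = 0.0378), lost its call without any 1 of BCAA-free sham replicates 1, 2 and 3 or BCAA-free TAC replicate 2 (0.0687 to 0.177). With TAC on the control diet 0 of 14 passed (5.34% of all genes), the nearest being Arntl2 (-0.39, adjusted p = 0.281), and with diet in sham hearts 0 of 15 (2.81% of all genes). With diet in TAC hearts 1 of 15 passed (3.38% of all genes), Timeless, which fell by 0.44 ± 0.09 (SE, adjusted p = 0.0425) and was lost without each of the 6 libraries in turn (0.0563 to 0.155).

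Clock output genes were 12 genes, all tested. In BCAA-free hearts 4 rose with TAC and 0 fell, where 4.32% of all genes passed, with a list median of 0.13 against -0.0030 for all genes. The 4 were Usp2, a deubiquitinase (0.42, limma adjusted p = 0.0125), Wee1 (0.78, 0.0224), Tspan4 (0.45, 0.0264) and Coq10b (0.35, 0.0299). Wee1 was 303, 307 and 397 normalised reads in BCAA-free sham and 457, 610 and 675 in BCAA-free TAC. These 4 calls were lost without BCAA-free sham replicate 1 or 2, with adjusted p of 0.0766 to 0.127. Usp2, Tspan4 and Coq10b were lost without replicate 3 as well (0.0553 to 0.128), and Wee1, Tspan4 and Coq10b without BCAA-free TAC replicate 2 (0.0650 to 0.0701). On the control diet 0 of 12 passed with TAC (5.34% of all genes), the nearest being Kcnip2, a potassium channel subunit (-0.45, adjusted p = 0.0564). In sham hearts 1 of 12 passed with diet (2.81% of all genes): on the BCAA-free diet, Tef, a relative of Dbp, fell by 0.56 ± 0.12 (SE, adjusted p = 0.0309), but the call was lost without each of the 3 BCAA-free sham libraries (0.105 to 0.143). In TAC hearts, 1 of 12 passed (3.38% of all genes): Wee1 was lower on the BCAA-free diet by 0.75 ± 0.15 (SE, adjusted p = 0.0313), a call lost without any 1 of control TAC replicates 1, 2 and 3 or BCAA-free TAC replicate 2 (0.0513 to 0.142).

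Averaged over the diets, 1 of 14 other clock components passed as higher with TAC and 0 as lower. Of 12 output genes, 4 passed as higher and 1 as lower, where 17% of all genes passed. The component was Ciart (0.86 ± 0.23, SE, limma adjusted p = 0.0230), lost without BCAA-free sham replicate 1 (0.0521). The 5 output genes were Tspan4 (0.44, adjusted p = 0.00409), Wee1 (0.74, 0.00707), Usp2 (0.30, 0.0161) and Tef (0.34, 0.0459), which rose, and Kcnip2 (-0.30, 0.0269), which fell. Averaged over surgery, Timeless (-0.38, 0.0185) and Rora (-0.26, 0.0279) among 15 components were lower on the BCAA-free diet. Among 12 output genes, Wee1 (-0.79, 0.00671), Tspan4 (-0.35, 0.0163), Hlf (-0.52, 0.0240) and Tef (-0.40, 0.0324) were lower and Dtx4 (0.33, 0.0392) was higher. That is 2 of 15 components and 5 of 12 output genes, where 11.8% of all genes passed, so the share of components was near that of all genes. Wee1 and Tspan4 held in both averages without each library in turn. With diet, Hlf was lost when any 1 of BCAA-free sham replicates 1 and 2, control TAC replicate 2 and control sham replicate 2 was left out (0.0519 to 0.0622), and Timeless without BCAA-free sham replicate 3 (0.0554). The weakest calls were lost in most of the 12 fits that each left out 1 library. Tef with TAC held only without BCAA-free TAC replicate 1 or control sham replicate 1, and was otherwise at 0.0588 to 0.104. Tef with diet held without any BCAA-free TAC library, control TAC replicate 1 or control sham replicate 3 (otherwise 0.0567 to 0.0826), Dtx4 without control sham replicate 3, BCAA-free sham replicate 3, control TAC replicate 1 or BCAA-free TAC replicate 3 (otherwise 0.0616 to 0.0904). Rora was lost in 6 of the 12 fits, those without control sham replicate 1 or 2, BCAA-free sham replicate 1 or 3, control TAC replicate 3 or BCAA-free TAC replicate 2 (0.0527 to 0.0756). With TAC, Kcnip2 was lost without control sham replicate 3, BCAA-free sham replicate 2 or 3, or BCAA-free TAC replicate 1 (0.0525 to 0.0614). Leaving out control TAC replicates 2 and 3 together ended the calls of Ciart, Tef, Usp2, Rora, Timeless, Hlf and Dtx4 in these averages (0.0793 to 0.211). In the difference of the TAC responses, 0 genes of the 4 lists passed by limma, where 0.0451% of all genes did.

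Glucocorticoid-responsive genes (11) and temperature-responsive genes (9), which follow daily rhythms of hormone and body temperature, were listed beside the clock. Fkbp5 and Mt2, which respond to glucocorticoids, rose with TAC on the BCAA-free diet by 0.74 ± 0.13 (SE, limma adjusted p = 0.0141) and 1.27 ± 0.18 (SE, adjusted p = 0.00597). On the control diet, Fkbp5 rose with TAC by 1.05 ± 0.24 (SE, adjusted p = 0.0401), although edgeR gave 0.0653 and DESeq2 0.0815. The first Fkbp5 call was lost without any 1 of BCAA-free sham replicates 1, 2 and 3 (0.0542 to 0.0910), and the second without control sham replicate 2 or 3 or any 1 of the control TAC libraries (0.0751 to 0.117). Fkbp5 was 1396, 616 and 789 normalised reads in control sham and 1764, 1654 and 2077 in control TAC. Counts were 1 and 3 of 11 in the TAC comparisons (control diet, where 5.34% of all genes passed, then BCAA-free diet, 4.32%) and 1 and 0 of 11 in the diet comparisons (sham hearts, 2.81%, then TAC hearts, 3.38%), the others being Zbtb16, which rose with TAC on the BCAA-free diet (0.66, adjusted p = 0.0346), and Cdkn1a, which rose with diet in sham hearts (0.61, adjusted p = 0.0102). Zbtb16 was lost without BCAA-free sham replicate 1 or 3 or BCAA-free TAC replicate 2 (0.1048 to 0.1504), and Cdkn1a without BCAA-free sham replicate 1 or 2 (0.0590 and 0.0657). List medians were 0.11, 0.04, 0.15 and 0.08 in the order control-diet TAC, BCAA-free TAC, diet in sham and diet in TAC hearts, against -0.0030 to 0.0043 for all genes. Cirbp, a cold-inducible RNA-binding protein, rose with the BCAA-free diet in sham hearts by 0.41 ± 0.08 (SE, adjusted p = 0.0245) and was 0.60 ± 0.16 (SE, adjusted p = 0.0793) higher in TAC hearts. The temperature-responsive list holds both cold-inducible genes such as Cirbp and heat shock genes such as Hspb1, so its median has no single direction. Its counts were 0 and 2 of 9 in the TAC comparisons and 1 and 0 of 9 in the diet comparisons, beside the same shares of all genes, with list medians of 0.10, 0.02, -0.13 and -0.19 in the same order. The 2 were Hspb1, which rose (0.45, adjusted p = 0.0211), and Hsph1, which fell (-0.33, adjusted p = 0.0360). Hspb1 was lost without BCAA-free sham replicate 2 or 3 (0.121 and 0.108) and Hsph1 without any 1 of the BCAA-free sham libraries or BCAA-free TAC replicate 2 (0.0857 to 0.168). Without BCAA-free sham replicate 1, 2 or 3, the sham call for Cirbp was lost (0.0719 to 0.123). Averaged over the diets, 5 of the 11 glucocorticoid-responsive genes passed as higher with TAC and 0 as lower: Fkbp5 (0.90, adjusted p = 0.00257), Mt2 (0.85, 0.00510), Tsc22d3 (0.35, 0.0104), Zbtb16 (0.90, 0.0143) and Mt1 (0.43, 0.0356). Hspb1 (0.39, 0.0125), 1 of the 9 of the temperature list, was also higher, where 17% of all genes passed. Mt1 was lost in 8 of 12 fits that left out 1 library and held without BCAA-free TAC replicate 1, BCAA-free sham replicate 1, control TAC replicate 2 or control sham replicate 1 (otherwise 0.0563 to 0.0918). Averaged over surgery, Cdkn1a (0.45, 0.00398) and Cirbp (0.51, 0.00552), 1 gene of each list, were higher on the BCAA-free diet, where 11.8% of all genes passed. Leaving out control TAC replicates 2 and 3 together ended the averaged calls of Tsc22d3, Zbtb16, Mt1, Cdkn1a and Cirbp (0.0502 to 0.124).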

How the data were processed

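RNA-seq of 12 mouse heart libraries was analysed from 4 deposited tables, each comparing groups that differ by diet or by surgery. The authors used Trizol and polyA selection, per the labels' protocols. Trimmomatic 0.36, STAR 2.5.2b, Subread 1.5.2, DESeq2 and GRCm38 are named per the submitters' processing notes; settings and strand are not given. Library columns in the deposited tables hold a signal: reads over a size factor set per table, judged from the values. The authors' log2 fold change and the authors' p-value columns are named per the file headers. Whole reads were recovered for 100% of values (tolerance 0.001 reads); 0 of 187617 values held in 2 tables differed. Levels use reads of 15665 genes, on 1 median-of-ratios scale.

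Tests used limma 3.58.1 (R 4.3.3) with a trend, on log2(value + 4), keeping genes whose mean was 10 or more. Benjamini-Hochberg adjustment was across all genes tested, threshold 0.05. Pairwise comparisons were fitted within their own table. The TAC average and the difference of the TAC responses used both TAC tables joined over shared genes, and the diet average both diet tables. In these joined fits all groups shared a common estimate of the spread. The pseudocount understates changes of low genes. Alternatives were a pseudocount of 1, no filter, quantile normalization, TMM, edgeR 4.0.16, DESeq2 1.42.0, a replicate block, leaving out each library, and leaving out control TAC replicates 2 and 3, which stood apart in earlier results. The limma and edgeR fits were tried on simulated data for TAC on the control diet and for the difference of the TAC responses. Every simulated gene had the same small spread, narrower than that of Arntl or Per1 in control sham, so the trial does not cover such genes. RPKM used GENCODE M21 exon lengths. The members and gene lists were chosen with earlier results of these data known. Named genes are the 10 members, up to 4 passing genes per list and comparison by smallest p (the nearest 1 where none passed), and the 5 genes most like and most opposite to Arntl.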

Additional observations from a re-analysis of the deposited data

How the results depend on the processing

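Counts of clock genes past the threshold moved as follows, with the share of all genes passing in the same fit in brackets. With edgeR the count was 1 with TAC on the control diet (4.61%). With diet in TAC hearts it was 4 with DESeq2 (7.31%) and 4 with the replicate block (7.86%). Without control TAC replicates 2 and 3 both, which leaves 1 control TAC library, it was 1 with TAC on the control diet (5.36%), 0 with diet in TAC hearts, where 0 of 15999 genes passed, and 3 with TAC averaged over diets (15.9%). Leaving out 1 library gave 0 to 2 with TAC on the control diet (1.89% to 4.16%) and 1 to 7 with TAC on the BCAA-free diet (0.668% to 7.57%). It gave 0 to 8 with diet in sham hearts (0.438% to 6.56%) and 1 to 2 with diet in TAC hearts (0.855% to 6.47%). The 7 with TAC on the BCAA-free diet came without BCAA-free TAC replicate 1 (5.02%). The cause of these shifts was not tested. Of 9 genes, 1 followed Arntl with group means subtracted and 0 when control sham replicate 3 was left out as well.

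The directions that turned all belong to genes that did not pass by limma with all libraries, or to r. Per1 with TAC on the control diet was -0.095 with edgeR and -0.093 with DESeq2. Cry1 with TAC on the BCAA-free diet was -0.0088 after quantile normalization. Dbp in the difference of TAC responses was 0.048 with edgeR and 0.037 with DESeq2. Without control TAC replicates 2 and 3 both, Clock was -0.014 and Nr1d2 0.0023 with diet in TAC hearts, and Npas2 was 0.029 with TAC averaged over diets. With group means subtracted, r of Cry1 with Arntl was 0.232, and with control sham replicate 3 also out, r of Npas2 was -0.013.

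Leaving out 1 library turned further directions, with these ranges. With TAC on the control diet, Per1 ran from -0.44 to 0.33, Per3 from -0.081 to 0.31 and Dbp from -0.13 to 0.40. The -0.44 of Per1, without control sham replicate 3, passed (limma adjusted p = 0.0352). With TAC on the BCAA-free diet, Nr1d2 ran from -0.13 to 0.058 and Cry1 from -0.043 to 0.091. Per1 ran from -0.75 to 0.027 with diet in sham hearts and from -0.24 to 0.11 with diet in TAC hearts, where Clock ran from -0.14 to 0.15. In the difference of TAC responses, Arntl ran from -0.043 to 0.85, Nr1d1 from -0.038 to 0.22, Nr1d2 from -0.013 to 0.18, Per1 from -0.13 to 0.64, Per2 from -0.016 to 0.56 and Dbp from -0.24 to 0.30. With TAC averaged over diets, Npas2 ran from -0.15 to 0.073 and Per1 from -0.12 to 0.27.

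Replicate numbers showed no general pairing of the libraries. Of 18 same-numbered pairs, r of their deviations was -0.104 to 0.255, and 1 was over 0.1. That pair was control TAC replicate 1 with BCAA-free TAC replicate 1, and whether libraries were paired in TAC hearts was not tested further. With the replicate block, 5 genes passed with diet in sham hearts (4.57%). In TAC hearts the block gave 4 with diet (7.86%), against 1 without it (3.38%). Of the list genes, the adjusted p under the block was 0.0669 for Bhlhe41, 0.0595 for Coq10b and 0.0690 for Hsph1 with TAC on the BCAA-free diet, 0.0572 for Tef with TAC averaged over diets and 0.0512 for Dtx4 with diet averaged over surgery, and these calls were lost. The 46 reads of Arntl and of Npas2 in their lowest libraries limit the precision of both genes.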
